A study of Mus musculus with 8 samples.

Results

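The comparison described here is the early response of mouse peritoneal macrophages to a low dose of leukocyte cell-derived chemotaxin 2 (LECT2). It rests on the 2 samples of 8 whose titles give the low dosage at 3.5 h. Each sample is 1 two-colour array on which RNA of macrophages given 0.5 µg/ml LECT2 was hybridised with RNA of macrophages given 0 µg/ml for the same time. The other 6 arrays, again 2 a group, cover 5 µg/ml at 3.5 h and both doses at 48 h. All cells, controls included, were isolated from the mouse peritoneum, plated and grown in low-glucose medium with 20% serum. The design text names 2 independent experiments with different mice, and gives neither strain, sex nor age. The titles put the time at 3.5 h, whereas the channel labels of the same arrays say 3 h.

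Peritoneal macrophages live in the fluid that bathes the abdominal organs, where they clear dying cells and respond to microbes. LECT2 is a protein secreted mainly by the liver and named for its ability to attract neutrophils. In mouse macrophages the C-type lectin Cd209a has been described as its receptor. A pair of signalling systems dominates the early transcription of an alarmed macrophage. In the first, NF-kB dimers are freed from their inhibitors and switch on cytokines, chemokines and the inhibitors themselves. In the second, interferon regulatory factors and STATs switch on antiviral effectors and guanylate-binding proteins, often after the first wave of cytokines.

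Values are log2 ratios of LECT2 over control, so that a positive value is higher with LECT2. The deposited table holds the opposite ratio, control over LECT2, by the dye labels, which put LECT2 in Cy3 and control in Cy5 on all 8 arrays, and its sign was turned. No dyes were swapped, so for a single transcript LECT2 and a dye bias common to all arrays cannot be told apart; differences between doses or times cancel it. A gene was called when its mean over both arrays differed from 0 at an adjusted p under 0.05 in a limma fit over 26148 genes, and ± after a mean gives the standard error (SE) of that fit (n = 2 arrays). With so few arrays precision is limited, and the median SE over genes was 0.28.

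Features of the 2 arrays bear on every value below. For 7 of the 8 columns of the deposited table, the scanner file that matched best was one recorded under another sample (r 0.990 to 1.000 over 20622 probes), and the exception was replicate 1 of this comparison, whose best match was its own file at r = 0.807. In the column of replicate 1, 4530 probes (11.5%) carried one identical value, 2.31 after the sign was turned, while no value occurred more than 3 times in any of the other 7 columns. Of those probes, 4113 were well above background in neither channel of the scanner file, and 683 of the 26148 genes tested rested on such a probe. The fit kept the deposited value for these genes; every named gene among them is marked below, with the result when that value is taken as missing. Across genes the 2 arrays correlated at r = 0.414, and at r = 0.469 without the shared value, a description over genes that are not independent replicates.

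Promoters of 4 genes that rose were picked as examples because they hold motifs of these signalling systems. Nfkbia and Cxcl2 held the NF-kB motif without the interferon motif, and Cxcl10 and Gbp5 held both. Each run is the 250 bases before the transcript start in RefSeq, build GRCm38.p6, 5′ to 3′ along the gene's strand. Capitals mark matches, on either strand, to the NF-kB motif (the 10-base kB consensus), to the interferon-stimulated response element (ISRE; GAAA and GAAA parted by any 2 bases) or to the AP-1 motif TGANTCA; capitals may join overlapping matches.
Nfkbia, chr12:55492648-55492897, minus strand: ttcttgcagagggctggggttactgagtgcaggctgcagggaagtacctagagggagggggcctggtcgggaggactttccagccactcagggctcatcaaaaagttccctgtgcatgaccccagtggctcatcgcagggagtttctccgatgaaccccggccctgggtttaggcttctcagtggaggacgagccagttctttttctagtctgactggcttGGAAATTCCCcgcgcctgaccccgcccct
Cxcl2, chr5:90903649-90903898, plus strand: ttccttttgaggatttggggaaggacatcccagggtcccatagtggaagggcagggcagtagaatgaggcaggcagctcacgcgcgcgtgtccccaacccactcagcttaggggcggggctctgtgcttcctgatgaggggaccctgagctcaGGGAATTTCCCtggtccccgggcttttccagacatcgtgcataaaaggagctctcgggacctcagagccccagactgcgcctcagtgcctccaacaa
Cxcl10, chr5:92348890-92349139, minus strand: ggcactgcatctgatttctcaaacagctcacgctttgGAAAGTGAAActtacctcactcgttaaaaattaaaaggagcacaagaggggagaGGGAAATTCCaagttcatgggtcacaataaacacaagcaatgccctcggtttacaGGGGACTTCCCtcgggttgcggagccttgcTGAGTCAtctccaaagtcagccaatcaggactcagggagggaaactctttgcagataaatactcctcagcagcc
Gbp5, chr3:142496684-142496933, plus strand: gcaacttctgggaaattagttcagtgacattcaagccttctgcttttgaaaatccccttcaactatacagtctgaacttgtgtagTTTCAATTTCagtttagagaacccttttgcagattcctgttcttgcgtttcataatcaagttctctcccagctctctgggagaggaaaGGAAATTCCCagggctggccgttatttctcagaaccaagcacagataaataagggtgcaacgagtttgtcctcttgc
The Nfkbia window held a kB match that began 29 bases before the start, and Cxcl2 held 2 overlapping kB matches at 97 and 96 bases before it. The Cxcl10 window held 3 kB matches, 1 ISRE match 213 bases before the start and 1 AP-1 match. In Gbp5 an ISRE match lay 165 bases and a kB match 77 bases before the start.

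Among 300-base windows (250 before to 50 after the start) of all 13308 tested genes with a RefSeq promoter, 9.93% of 16610 held a kB match, 3.23% an ISRE match and 6.21% an AP-1 match. Windows of genes called higher held them in 14.8%, 7.69% and 9.23% of 520 cases, and those of genes called lower in 9.60%, 2.51% and 8.56% of 479. Among NF-kB subunits, inhibitors and feedback genes, called or not, 12 of 19 windows held a kB match (63.2%) and 0 an ISRE match. Among guanylate-binding proteins and immunity-related GTPases, 8 of 10 windows held an ISRE match (80.0%), and among antiviral effectors 12 of 22 did (54.5%). These shares describe letters in a window and were not tested.

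At 3.5 h with the low dose, 1279 of 26148 genes were called in the fit over all arrays (4.89%), 718 higher (2.75%) and 561 lower (2.15%). The counts called in the gene lists below are to be read beside these shares. The total depends on the arrays fitted and on the source of the values. With only the 4 arrays of 3.5 h in the limma fit, 153 genes were called. From the 2 low-dose arrays alone 0 were called, with 4664 at an unadjusted p under 0.05. From the scanner files as recorded 0 were called (896 unadjusted), against 2385 with loess on the matched files. All 1279 lay on the same side of 0 on both arrays, against 17315 of the 26148 genes tested. Genes were called on the mean of these 2 arrays, so the selection favours such agreement and it adds no support. Changes of at least 1 on the log2 scale, a doubling, made up 702 of the genes called higher and 545 of those called lower. Changes of at least 4 numbered 14 and 1. The split depends on the scaling: with the scanner files centred on their medians, which moved the median of all genes to -0.13, 762 genes were called higher and 2480 lower. Of the 718 genes called higher, 62 took their value of replicate 1 from the shared value, and 656 did not; with that value left missing, 701 were called higher and 607 lower. In the scanner file of replicate 1, 681 of 717 genes called higher and 548 of 560 called lower had the same sign. Leaving out 1 array shows how much rests on each: 117 genes were called without replicate 1 and 1372 without replicate 2, of which 97 and 546 were among the 1279.

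**Figure D1:**
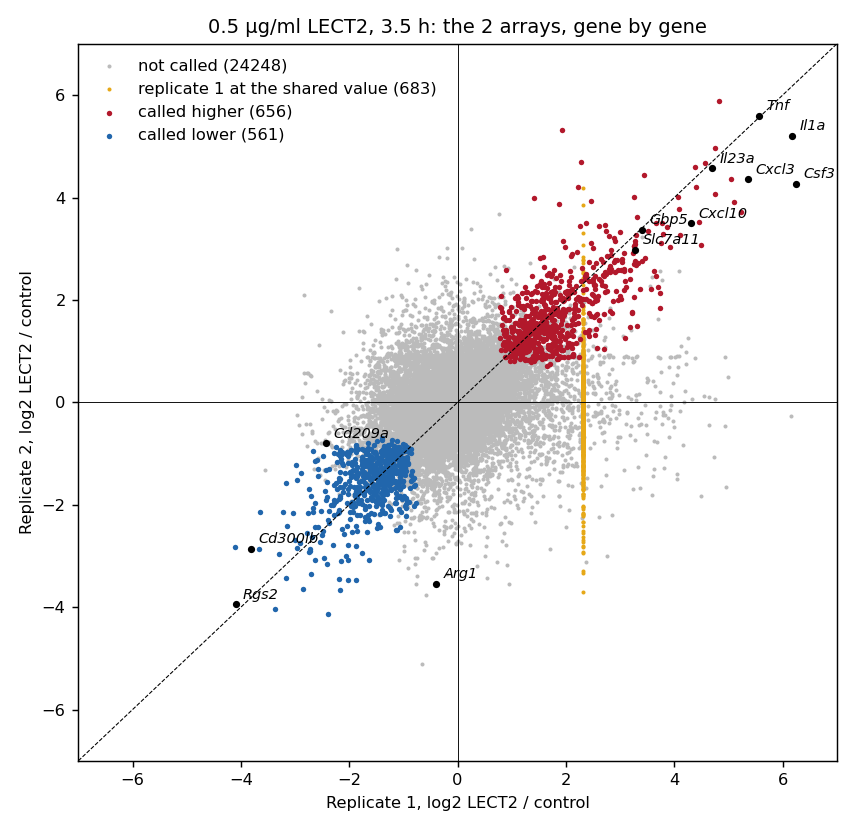
Each point is a gene, with the log2 ratio of LECT2 over control on replicate 1 (horizontal) against that on replicate 2 (vertical); red and blue mark genes called higher and lower with a value of their own on both arrays, and yellow the 683 genes at the shared value of 2.31. The called genes, picked by their mean over these 2 arrays, lie along the dashed line of equal values. The yellow genes spread over replicate 2 without a counterpart on replicate 1.

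Inflammatory cytokines had the highest median of the pathway lists in the deposited table; with loess on the matched scanner files theirs was 1.86, below the 1.97 of NF-kB control genes. Of 19 tested, 11 were called higher and 0 lower, with a median of 2.51, against 0.00 over all genes. Without replicate 1, 6 of the 19 were called. Tnf, the early alarm cytokine, measured 5.57 on replicate 1 and 5.60 on replicate 2, a mean of 5.58 ± 0.36 or 47.9-fold (adjusted p = 0.00154). In the normalised channels its log2 signal was 17.45 and 17.41 with LECT2 and 11.81 and 11.75 in control, so the channels lay far apart on both arrays. Il1a, a cytokine released from damaged cells, rose most of all genes with a symbol, by 6.17 and 5.21 (mean 5.69 ± 0.41, adjusted p = 0.00187). Its partner Il1b, which needs cleavage by an inflammasome, rose less, by 3.28 and 2.76 (mean 3.02 ± 0.46, adjusted p = 0.0143).

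Subunits of the interleukin 12 family and growth factors of blood cells followed. Il23a, the subunit particular to interleukin 23, rose by 4.71 and 4.57; control was not well above background on either array, and the channel signals bound the change at 11.7-fold or more. Such bounds set the LECT2 signal against the higher of the dim probe's own signal and the lowest signal well above background, averaged on the log2 scale. Il12a, which pairs with another subunit into interleukin 12, rose by 4.46 and 3.52 (mean 3.99 ± 0.45), and Il27 by 3.31 and 3.62 (mean 3.46 ± 0.21). Csf3, which drives neutrophil production, reached 6.26 on replicate 1 and 4.27 on replicate 2, the widest spread of this group's 3 leading genes. Csf2, a growth factor of macrophages and granulocytes, rose by 3.01 and 2.01, and Lif, an interleukin 6 relative, by 4.38 and 4.60. Il6 itself rose by 3.45 and 2.81 (mean 3.13 ± 0.44, adjusted p = 0.0118). Il15 was called at 2.03 ± 0.34, but its replicate 1 held the shared value; replicate 2 alone gave 1.75 with adjusted p = 0.0960. Il10, which restrains macrophages, lay at -0.18 and 2.11 on opposite sides of 0 and did not pass (adjusted p = 0.279).

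Chemokines, the proteins that guide leukocytes, were called higher in both families. Of 12 CXC chemokines tested, 4 were called higher and 0 lower (median 1.44). Cxcl10, which attracts T cells and is induced by interferon, rose by 4.31 and 3.50 (mean 3.91 ± 0.48, adjusted p = 0.00781), and Cxcl9, a relative of it, by 1.79 and 1.39. The neutrophil attractants Cxcl1 and Cxcl2 rose by 3.16 ± 0.62 and 2.87 ± 0.56 (adjusted p = 0.0346 and 0.0328). Cxcl3, of the same kind, had larger values than either, 5.37 and 4.35, but with an SE of 1.36 over the whole fit it did not pass (adjusted p = 0.0868). With loess on the matched scanner files Cxcl3 passed (mean 4.82, adjusted p = 0.00797). Of 13 CC chemokines tested, 4 were called higher and 0 lower (median 1.02). Ccl3 and Ccl4, which attract monocytes and T cells, rose by 3.65 ± 0.32 and 3.43 ± 0.38, and Ccl5 by 3.48 ± 0.29, each above 3 on both arrays. Ccl12 rose by 3.18 and 2.41. The monocyte attractants Ccl2 and Ccl7 measured 1.90 ± 0.54 and 2.33 ± 0.67 and did not pass (adjusted p = 0.0909 and 0.0939).

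**Figure D2:**
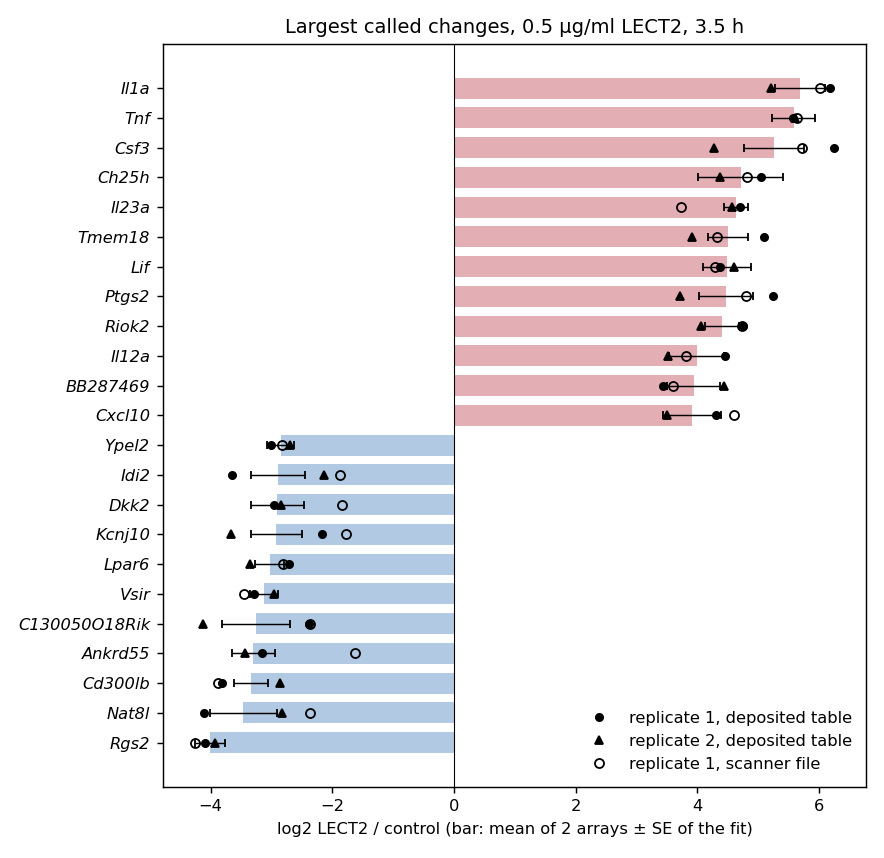
Bars give the mean log2 ratio of LECT2 over control of genes among the 12 largest called changes in each direction, with whiskers of 1 SE; filled symbols are the 2 arrays in the deposited table and open circles replicate 1 in its scanner file. Tnf and Rgs2 have nearly equal symbols, whereas Csf3, Ptgs2 and Nat8l are spread. The open circles of Ankrd55, Kcnj10, Dkk2 and Idi2 lie nearer to 0 than the table's values. BB287469 has a mean of 3.94, but a second probe of it gave 0.007.

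Most of the genes of NF-kB control rose. Of 17 subunits, inhibitors and feedback genes, 12 were called higher and 0 lower (median 1.83), and 16 were above 0 on both arrays. Without replicate 1, 3 of the 17 were called, and 10 without replicate 2. All 5 subunit genes were called: Nfkb2 at 2.13 ± 0.20, Rel at 2.09 ± 0.24, Nfkb1 at 1.88 ± 0.23, Relb at 1.79 ± 0.21 and Rela at 1.50 ± 0.21. Rel held the shared value on replicate 1, its control was not well above background on either array (at least 1.79-fold by its bound), and the scanner file of replicate 1 gave only 0.21. With the shared value missing, Rel had a value of 1.87 (adjusted p = 0.0322), and with that file in place of the table its mean was 1.04 (adjusted p = 0.181). Among the inhibitors that hold NF-kB in the cytoplasm, Nfkbia rose by 3.32 and 2.73, Nfkbib by 2.75 and 2.18 and Nfkbie by 1.91 and 1.75. Nfkbiz, a nuclear member of the inhibitor family that promotes some late targets, rose by 2.75 and 3.35 (mean 3.05 ± 0.38, adjusted p = 0.00843). Feedback genes that act on ubiquitin chains followed, with Tnfaip3 at 1.82 ± 0.23 and its binding partner Tnip1 at 2.90 ± 0.20. Traf1, an adaptor of tumour necrosis factor receptors, had the highest value of the group, 3.41 and 2.76 (mean 3.09 ± 0.25, adjusted p = 0.00240). Tnip3 and Birc3 measured 1.63 ± 0.44 and 1.23 ± 0.40 and did not pass.

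Upstream of NF-kB, some genes of Toll-like receptor signalling were called. Of 20 receptors, co-receptors and adaptors, 4 were called higher (20%, against 2.75% over all genes) and 0 lower, with a median of 0.09. Irak3, an inhibitor of the pathway, rose by 2.48 and 1.94 (mean 2.21 ± 0.46). Myd88, the shared adaptor, rose by 1.95 and 1.82, and the receptors of bacterial lipoproteins Tlr2 and Tlr1 by 1.75 ± 0.34 and 1.35 ± 0.27. Tlr4, the receptor of endotoxin, measured 0.20 and -0.41 and its co-receptor Cd14 2.33 and 1.96; neither passed (adjusted p = 0.907 and 0.109).

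Interferon-induced genes formed the other large block. Of 22 antiviral effectors tested, 14 were called higher and 0 lower (median 1.45), and 21 were above 0 on both arrays. Without replicate 1, 2 of the 22 were called, and 8 without replicate 2. Oasl1, of the oligoadenylate synthetase family, rose by 3.29 and 3.27 and Ifit2, which binds foreign RNA ends, by 2.84 and 2.98. Its relatives Ifit1 and Ifit3 rose by 2.46 ± 0.24 and 2.48 ± 0.23, the ubiquitin-like modifier Isg15 by 2.49 ± 0.21 and the RNA sensor Ifih1 by 2.57 ± 0.27. Cmpk2 and Rsad2, neighbouring antiviral enzymes, rose by 2.63 ± 0.48 and 2.42 ± 0.23. Usp18, which removes Isg15 from proteins and damps the receptor, rose by 1.56 ± 0.30.

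Of 16 guanylate-binding proteins and immunity-related GTPases, which attack the vacuoles of microbes, 6 were called higher and 0 lower (median 1.57), against 1 called without replicate 1. Gbp5 rose by 3.41 and 3.37 (mean 3.39 ± 0.27, adjusted p = 0.00235), Tgtp1 by 2.69 and 2.50 and Gbp3 by 1.96 and 2.03. Gbp2, Ifi47 and Irgm2 rose by 1.79 ± 0.29, 1.60 ± 0.30 and 1.59 ± 0.30, each above 1 on both arrays. Gbp4 measured 2.59 on replicate 1 but 0.50 on replicate 2 and did not pass (adjusted p = 0.196). Members of these families are similar in sequence, and cross-hybridisation between them was not tested.

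Some of the factors that carry or restrain interferon signals passed. Of 20 interferon regulatory factors, STATs and SOCS inhibitors, 4 were called higher (20%, against 2.75% over all genes) and 0 lower (median 0.38). Among them are feedback inhibitors of cytokine receptors: Socs1 rose by 3.07 and 2.19 (mean 2.63 ± 0.29) and Socs3 by 2.47 and 1.68 (mean 2.07 ± 0.32). A relative, Cish, was called at 2.35 ± 0.38, but its replicate 1 held the shared value and its adjusted p was 0.0632 with that value missing. Irf1, an activator of interferon targets, rose by 1.68 and 1.48 (mean 1.58 ± 0.24, adjusted p = 0.0154). Irf7 and Irf8 measured 0.83 ± 0.53 and -0.95 ± 0.23 and did not pass.

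Some of the enzymes that make mediators rose. Ch25h, which makes 25-hydroxycholesterol, rose by 5.05 and 4.37 (mean 4.71 ± 0.70, adjusted p = 0.0142). It belonged to 13 tested enzymes of arginine, nitric oxide, itaconate, tryptophan and related metabolism, of which 6 were called higher and 0 lower (median 1.53, or 1.01 with dim genes at their bounds). Acod1, which makes itaconate, rose by 3.67 and 3.51, and the arginine importer Slc7a2 by 1.90 and 2.48. Hdc, which makes histamine, was at least 2.02-fold higher by its bound, with values of 2.56 and 1.43. Ass1 and Gch1, which supply arginine and a cofactor to nitric oxide synthase, rose by 1.81 ± 0.34 and 1.53 ± 0.24. Nos2, the inducible synthase itself, measured 1.10 and 0.16 and did not pass (adjusted p = 0.241).

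Arginase 1, which competes for arginine, gave the widest disagreement among the genes of this group. Arg1 measured -0.39 on replicate 1 and -3.54 on replicate 2 (mean -1.97 ± 1.13, adjusted p = 0.361), and under the files as recorded its mean was 1.29. In prostaglandin and leukotriene synthesis 2 of 13 genes were called higher and 1 lower (median -0.69). Ptgs2, the inducible cyclooxygenase, rose by 5.24 and 3.71 (mean 4.48 ± 0.44, adjusted p = 0.00411) and Ptges, the synthase after it, by 2.09 and 1.50, with a mean of 4.47 on its second probe. Ptgs1, the constitutive cyclooxygenase, fell, with -0.81 and -2.02 (mean -1.41 ± 0.30, adjusted p = 0.0411).

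Of 18 inflammasome sensors, caspases and cell death regulators, 7 were called higher and 0 lower (median 0.98). Nlrp3, a sensor of cell damage, rose by 2.80 and 3.25 (mean 3.02 ± 0.34, adjusted p = 0.00603). Mefv, the pyrin sensor, and Nod2, a sensor of bacterial wall fragments, rose by 2.19 ± 0.32 and 1.94 ± 0.25, and Casp4 (caspase 11), which senses cytosolic endotoxin, by 1.50 ± 0.27. Cflar, an inhibitor of death receptor signalling, rose by 1.89 ± 0.33 and the death receptor Fas by 1.88 ± 0.32. The killer gene Bcl2l11 was called at 1.58 ± 0.34, but its replicate 1 held the shared value and replicate 2 alone gave 0.86 (adjusted p = 0.190).

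Among surface proteins that speak to T cells, most calls were higher. Of 25 costimulatory, checkpoint and antigen presentation genes, 5 were called higher (20%, against 2.75% over all genes). Called lower was 1 (4%, against 2.15% over all genes), and the median was 0.55. On both arrays 15 of the 25 lay above 0 and 3 below. The adhesion molecule Icam1 rose by 2.89 and 3.22, Cd40, a receptor for T cell help, by 2.88 and 2.75 and Tnfsf9 by 2.96 and 2.58. Icosl and Vcam1 rose by 2.58 ± 0.24 and 2.09 ± 0.36. Vsir, an inhibitory checkpoint also named VISTA, fell, with -3.29 and -2.97 (mean -3.13 ± 0.23, adjusted p = 0.00196). A second probe of Vsir gave -1.87. Cd80, Cd86 and Cd274 measured -0.63 ± 0.26, 0.24 ± 0.32 and 0.89 ± 0.34 and did not pass.

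Genes called lower were led by a brake on G-protein signalling. Rgs2, which shortens signals from G-protein coupled receptors, measured -4.10 and -3.94 (mean -4.02 ± 0.24, adjusted p = 0.00151), a 16.2-fold lower level with LECT2. Its normalised log2 signal was 10.80 and 11.21 with LECT2 and 15.05 and 15.06 in control. Of 20 regulators of G-protein signalling, receptors and phosphodiesterases, 2 were called higher and 5 lower (median -0.41). Besides Rgs2, Rgs18 fell, with a mean of -1.86 ± 0.39, Rgs10 with -0.93 ± 0.20, the oxysterol receptor Gpr183 with -2.55 ± 0.33 and the ATP-gated channel P2rx7 with -1.52 ± 0.23. Against them, Gpr84, a receptor of medium-chain fatty acids, rose by 4.10 and 3.26, and Pde4b, which degrades cyclic AMP, by 3.56 and 2.21. A second probe of Rgs2 gave -3.15, and further probes of P2rx7 gave -0.67 and -0.62.

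Some receptors that steer macrophages fell. Of 16 chemokine and chemoattractant receptors, 1 was called higher and 3 lower (median -0.18). Cxcr4, which holds leukocytes in tissues, fell, with -2.51 and -2.59, the complement receptor C3ar1 with -2.07 and -1.38 and Ccr1, a receptor of Ccl3 and Ccl5, with -1.39 and -1.89. The scavenging receptor Ccrl2 rose by 3.00 and 2.09. The formyl peptide receptors Fpr1 and Fpr2 measured 3.32 ± 1.14 and 3.08 ± 0.90 and did not pass (adjusted p = 0.143 and 0.0961). Of 23 cytokine receptors and soluble antagonists, 0 were called higher and 3 lower (median -0.10), the 3 being the interleukin 6 receptor chains Il6ra at -1.47 ± 0.28 and Il6st at -1.44 ± 0.26 and the TGF-beta receptor Tgfbr2 at -1.35 ± 0.23. A second probe of Tgfbr2 gave -0.60. On both arrays 7 of the 23 lay above 0 and 9 below.

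In the lists of macrophage identity and of cholesterol efflux, the genes that were called were lower. Of 22 identity genes of resident peritoneal macrophages, 0 were called higher and 3 lower (13.6%, against 2.15% over all genes), with a median of -0.42. On both arrays 3 of the 22 lay above 0 and 9 below, and 10 lay on opposite sides of 0. Gata6, the factor that defines the peritoneal state, fell, with -1.09 and -0.97 (mean -1.03 ± 0.21, adjusted p = 0.0378), and Naip1, an inflammasome sensor, had a mean of -1.38 ± 0.19 and one of -0.25 on its second probe. Of 19 genes of cholesterol efflux, oxysterols and lipid droplets, 0 were called higher and 3 lower, with the lowest median of the pathway lists, -1.07. Tmem86a, a lysoplasmalogenase and target of liver X receptors, fell, with -2.47 and -3.03, the sterol exporter Abcg1 with -1.76 and -1.07 and the cholesterol ester hydrolase Nceh1 with -1.41 and -1.44. Abca1, the other main exporter, measured -0.37 and -0.06 and did not pass (adjusted p = 0.842).

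Of 18 genes of cholesterol synthesis, Dhcr7 at -1.46 ± 0.25 and Fdft1 at -1.09 ± 0.24 (adjusted p = 0.0212 and 0.0498) were called lower and 0 higher (median 0.02). A second probe of Fdft1 gave 0.09, on the other side of 0. Cd300lb, an activating receptor of myeloid cells, was the 1 gene called lower among 20 Cd300, Trem, paired and Fc receptors, with -3.82 and -2.85 (mean -3.34 ± 0.28), and 0 were called higher. Trem3 and Tarm1 measured 3.02 ± 1.00 and 3.25 ± 0.99 and did not pass, Tarm1 with the shared value on replicate 1 (adjusted p = 0.141 with it missing). Angpt2, a vascular growth factor, was at least 2.84-fold lower by its bound and was the 1 gene called among 16 of the TGF-beta family and other growth factors. Other large falls lay outside the lists, among them the acetyltransferase Nat8l at -3.46 ± 0.55, the lysophosphatidic acid receptor Lpar6 at -3.03 ± 0.23, the potassium channel Kcnj10 at -2.92 ± 0.42 and the Wnt antagonist Dkk2 at -2.90 ± 0.43. Ankrd55, C130050O18Rik and Ypel2 had means of -3.30 ± 0.35, -3.26 ± 0.56 and -2.85 ± 0.22. A second probe of Ankrd55 gave -1.93. Idi2 measured -2.89 ± 0.45, but a second probe of it gave 0.27. With loess on the matched scanner files the falls were smaller, with means of -2.12 for Nat8l, -2.12 for Kcnj10, -1.64 for Dkk2 and -1.40 for Idi2, and these 4 genes were still called.

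The immediate early factors, which follow a stimulus within minutes, gave few calls. Of 23 tested, 1 was called higher (4.35%, against 2.75% over all genes) and 2 lower (8.70%, against 2.15%), with a median of 0.12. Fos fell, with -2.72 and -2.89 (mean -2.80 ± 0.52, adjusted p = 0.0278) and Egr2 with -2.63 and -1.14, while Maff rose by 1.98 and 1.79. Jun, Junb, Egr1 and Atf3 measured -0.37 ± 0.36, 0.97 ± 0.30, -0.51 ± 0.37 and -0.97 ± 0.29 and did not pass. Of 13 phosphatases and other brakes of MAP kinases, 4 were called higher and 0 lower (median 0.56). Dusp8 and Spry1 rose by 1.66 ± 0.34 and 1.60 ± 0.26. Dusp16 and Dusp4 were called at 2.30 ± 0.31 and 1.85 ± 0.35 with the shared value on replicate 1; with it missing Dusp16 had a value of 2.30 (adjusted p = 0.0430) and Dusp4 one of 1.38 (adjusted p = 0.140).

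Lectins and scavengers included the described receptor of LECT2. Cd209a measured -2.42 on replicate 1 and -0.79 on replicate 2, both below 0, and did not pass (mean -1.61 ± 0.45, adjusted p = 0.0872). Among 18 C-type lectins, scavenger and apoptotic cell receptors, 2 were called higher and 0 lower (median 0.29). Clec4e, also named Mincle, which binds mycobacterial glycolipid, rose by 2.61 and 2.41, and Timd4, a receptor of apoptotic cells, by 0.94 and 1.28. Mertk, another receptor for apoptotic cells, measured 0.39 and 0.26 and did not pass.

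The remaining lists gave few calls in number, some of them at shares above those over all genes. Medians near 0 had no settled sign: in 10 of the 30 pathway lists, all with a median within 0.29 of 0, the sign turned under loess or median centring of the scanner files (the receptors and adaptors of Toll-like signalling, for one, went from 0.09 to -0.35). Among 23 genes of glycolysis and the hypoxia response, Adm rose by 1.41 ± 0.28 and Vegfa fell, with a mean of -1.73 ± 0.33. Among 25 genes of the cell cycle, 2 were called higher (8%, against 2.75% over all genes) and 1 lower (4%, against 2.15%), with a median of -0.33. On both arrays 4 of the 25 lay above 0 and 12 below. The inhibitor Cdkn1a (p21) rose by 1.94 and 1.97 (0.58 on its second probe) and the proliferation marker Mki67 by 2.87 and 1.98. Cenpa, a centromeric histone, fell, with -1.51 and -1.47. Of 20 matrix proteases, inhibitors and coagulation genes, Mmp8 and Adam8 were called lower, at -1.41 ± 0.27 and -1.30 ± 0.29, and 0 higher. None of the 17 NADPH oxidase and antioxidant genes, 18 stress response genes, 21 ribosomal protein genes or 24 respiratory chain genes was called by the limma fit; 9 of these 80 genes had an unadjusted p under 0.05. The cystine importer Slc7a11 came closest among the antioxidant genes, with 3.28 and 2.98 (adjusted p = 0.0548), and passed with loess on the matched scanner files (adjusted p = 0.0280).

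**Figure D3:**
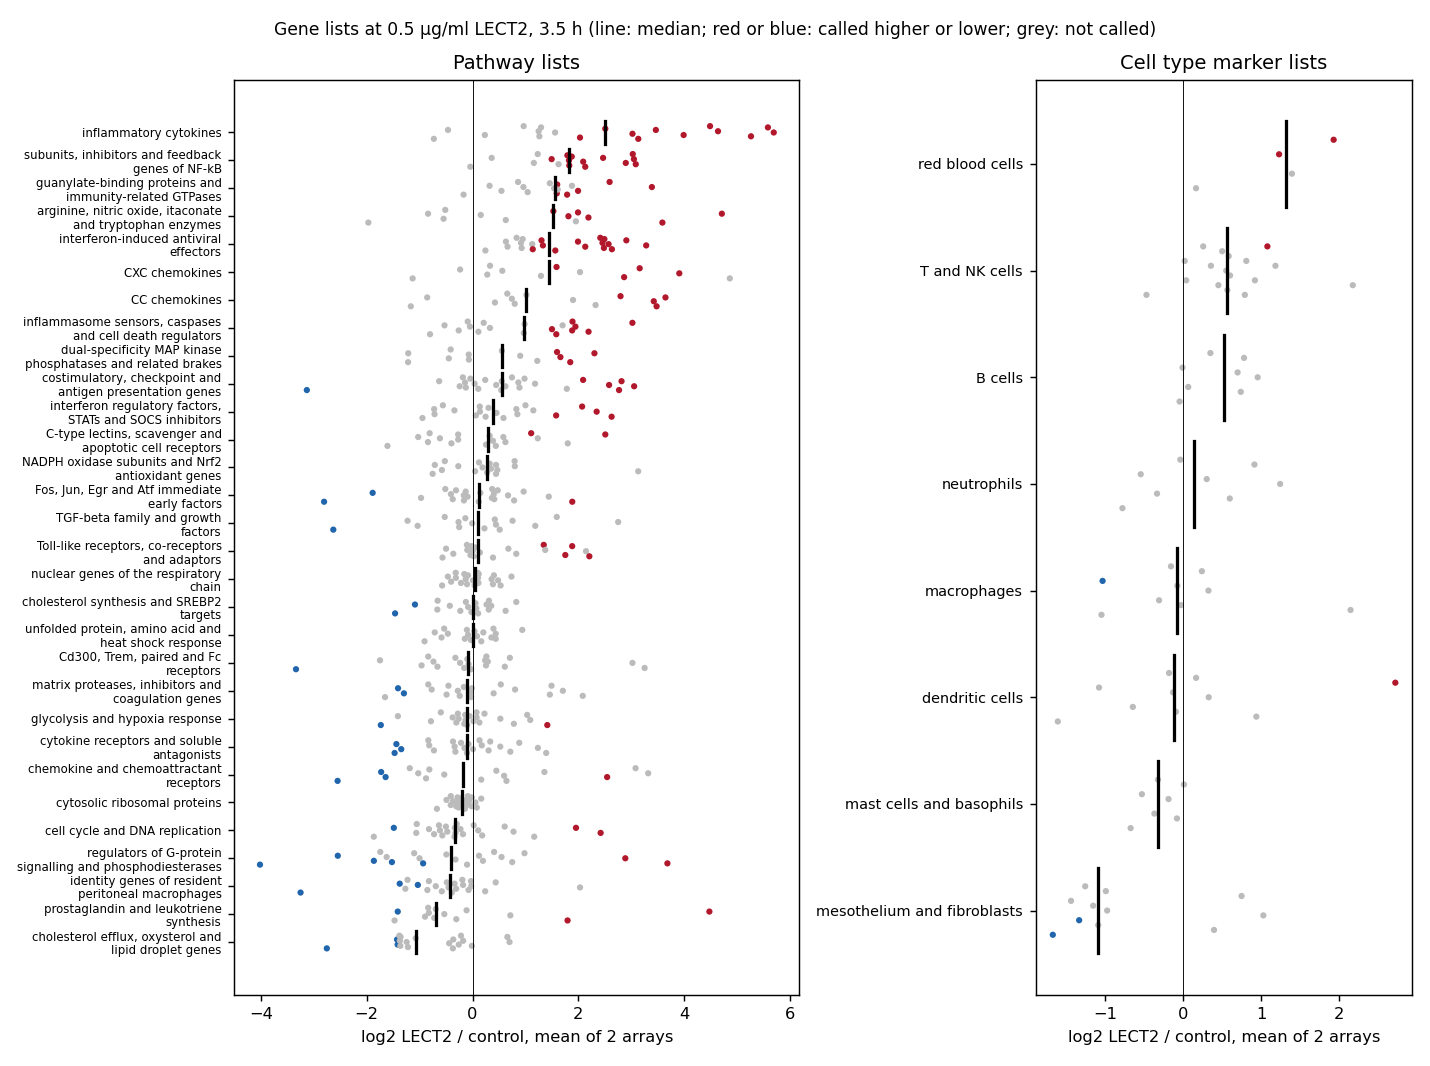
Each point is a gene of a pathway list (left) or a cell type marker list (right), placed at its mean log2 ratio of LECT2 over control; red and blue points were called higher and lower, grey ones were not called, and black lines are medians. In these values of the deposited table inflammatory cytokines have the highest pathway median, 2.51 (with loess on the scanner files NF-kB control genes do), and cholesterol efflux genes the lowest, -1.07; red blood cell markers stand highest and mesothelial markers lowest among the marker lists.

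Markers of the labelled cell type were measured in both channels. All 9 macrophage markers tested were well above background in each channel on at least 1 array, with a median change of -0.08; Gata6 was called lower and none higher. Their summed signal was 309165 and 341065 with LECT2 and 140004 and 226363 in control on replicates 1 and 2. Cd14, the highest of these markers, had a mean change of 2.15 and did not pass in the limma fit (adjusted p = 0.109). The part of single markers in the sum was not tested. Adgre1 (F4/80), the standard marker of mouse macrophages, measured 0.07 and 0.41, and Csf1r, the receptor of the main macrophage growth factor, -0.25 and 0.10; neither passed.

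Markers of other cells moved with some of these results. Red blood cell genes were higher with LECT2 mainly on replicate 1, with a median of 2.06 against 0.56 on replicate 2, and 2 of 4 tested were called higher (Hbb-b2 at 1.93 ± 0.30, Hba-a2 at 1.23 ± 0.26); their summed signal was 28320 and 3555 with LECT2 and 6072 and 2161 in control. Mesothelial and fibroblast genes had a median of 0.07 on replicate 1 and -1.58 on replicate 2, with 2 of 11 called lower (Wt1 at -1.67 ± 0.20, Pdgfra at -1.33 ± 0.27) and summed signals of 19394 and 17139 with LECT2 and 20539 and 74316 in control. T and NK cell genes had a median of 0.57, with 13 of 17 above 0 on both arrays and 1 called (Cd247 at 1.08 ± 0.23), and summed signals of 30333 and 21929 with LECT2 and 19208 and 17127 in control. Of 8 B cell, 8 neutrophil and 7 mast cell markers 0 were called by the limma fit (2, 3 and 0 at an unadjusted p under 0.05), with medians of 0.52, 0.13 and -0.32; mast cell markers had a median of -1.27 on replicate 1 and 0.73 on replicate 2. The 10 dendritic cell markers had a median of -0.11 (0.03 with loess on the matched scanner files), with 3 above 0 and 3 below on both arrays. Of them only Zbtb46 was called, with 2.69 and 2.75, though a second probe of it gave 0.61. Cd209a, also in this list, had a mean of -1.61 and did not pass. In bulk samples fewer cells of a type and less RNA per cell cannot be told apart, and the part of these cells in the changes above was not tested.

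The dose was compared at the same time by subtracting the low-dose mean from that at 5 µg/ml, a difference in which a shared dye effect cancels. The difference passed in 0 of 26148 genes (0%), with 2047 at an unadjusted p under 0.05 in the limma fit; against control 5723 genes (21.9%) were called at the high dose. Without replicate 2 of the low dose, 436 genes differed, and 8 genes did with loess on the matched scanner files. The same 3 leading cytokines illustrate the sizes: the high dose exceeded the low by 0.23 ± 0.51 for Tnf, 0.25 ± 0.58 for Il1a and 1.59 ± 0.70 for Csf3. For Rgs2 the difference was -0.76 ± 0.35, and for Tmem86a it was -1.92 ± 0.38 (adjusted p = 0.574). For Hdc, whose control was dim, the table's ratios were 4.52 with the high dose and 1.99 with the low; they have no exact size, and their difference did not pass (adjusted p = 0.574). The lowest adjusted p over all genes was 0.205, and the missing calls do not show that the doses act alike.

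Time was compared by subtracting the low-dose change at 3.5 h from that at 48 h. Of 26148 genes 26 passed (0.0994%), 22 of them lower at 48 h (0.0841%) and 4 higher (0.0153%). Of the 26, 25 were called at 3.5 h, 21 higher and 4 lower, and Fam13c was not. Against control 45 genes (0.172%) were called at 48 h with the low dose. Il1a stood at 0.68 and -0.05 on the 48 h arrays, a difference of -5.38 ± 0.58 (adjusted p = 0.0329), and Tnf at 1.49 and 0.26, a difference of -4.71 ± 0.51 (adjusted p = 0.0329). Since both cytokines passed this test, the lack of overlap between their 2 times adds no support. The differences were -3.99 for Il23a, a size that is not exact because its control was dim at 3.5 h, and -2.82 for Il27, and -3.15 for Tnip1, a brake of NF-kB. Tnfaip2, a tumour necrosis factor target, differed by -2.97, the stress gene Gadd45b by -2.55 and Zbtb46 by -2.77.

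Genes without a role in the lists above shared this course. Tmem18, a nuclear membrane protein, measured 5.10 and 3.91 at 3.5 h and -0.29 and -0.90 at 48 h, and Riok2, a kinase of ribosome assembly, 4.75 and 4.06 against -0.03 and -0.44. Fnbp1l, Intu, Lmo7 and Ahsa2 differed by -2.97, -2.78, -2.72 and -2.58; second probes of Intu and Lmo7 measured 0.69 and 0.00 at 3.5 h, far below the brighter probes. In the other direction Rgs2 stood at -0.19 and -0.68 at 48 h, a difference of 3.58 ± 0.35 (adjusted p = 0.0275), and Vsir and Eepd1 differed by 2.79 and 3.02. These calls rest on replicate 1 in particular: 0 genes passed without it, against 240 without replicate 2. If the scanner files belong to the columns they match, all 3.5 h arrays share one slide and all 48 h arrays the other, and slide and time cannot be told apart.

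**Figure D4:**
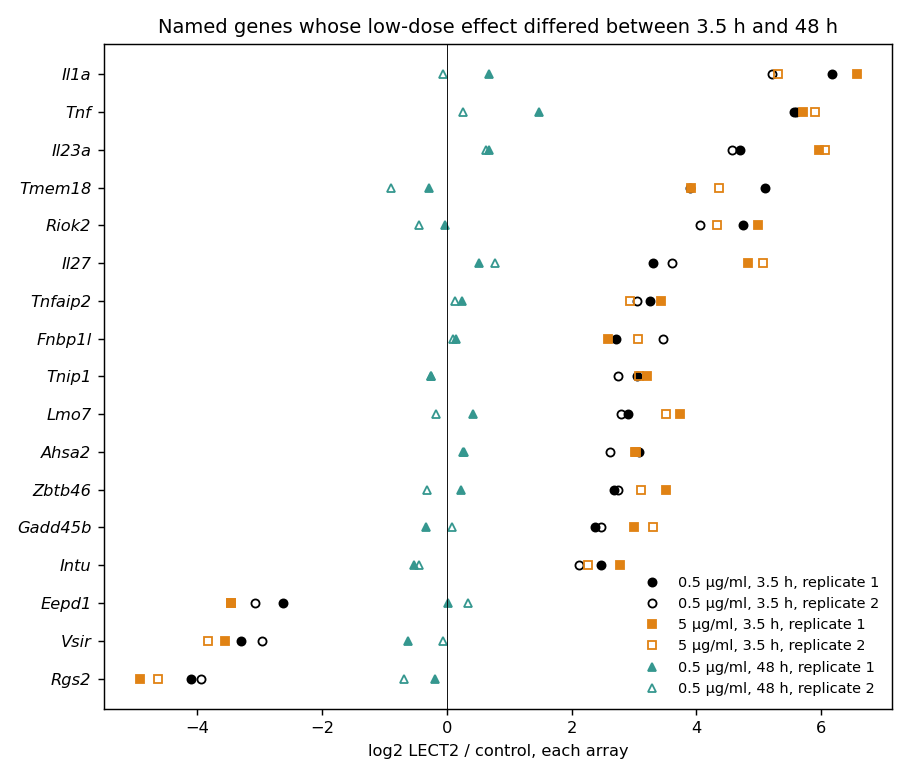
The 17 genes with a symbol that were called at 3.5 h and whose low-dose change differed between the times are shown with the log2 ratio of LECT2 over control on each array; filled and open symbols are replicates 1 and 2. At 48 h the low-dose arrays (triangles) lie near 0 for nearly all genes, while the low-dose and high-dose arrays at 3.5 h (circles and squares) lie far from it on the same side.

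No interferon-induced gene of the lists passed the test between the times. Of 22 antiviral effectors and 16 GTPases, 0 differed between the times by the limma fit (6 and 11 at an unadjusted p under 0.05), the lowest adjusted p being 0.115, and 12 of the 22 and 15 of the 16 had a larger mean at 48 h than at 3.5 h. Ifit2 stood at 4.83 and 4.26 at 48 h against 2.84 and 2.98 at 3.5 h, and Gbp2 at 3.23 and 2.96 against 1.78 and 1.79. The list medians at the low dose were 1.45 at 3.5 h and 1.41 at 48 h for antiviral effectors and 1.57 and 2.58 for GTPases. For NF-kB control genes the corresponding medians were 1.83 and 0.21, with 1 of 17 passing the test of the difference, and for cytokines 2.51 and 0.64 with 4 of 19. Whether the lists differ from each other in this respect was not tested.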

How the data were processed

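RNA of LECT2-treated (Cy3) and control (Cy5) peritoneal macrophages was amplified and hybridised to 8 two-colour Agilent arrays of 44397 spots, 2 per dose and time. The authors' deposited table holds log2 ratios of Cy5 over Cy3 for 39428 probes; how it was normalised is not given in the sources used here. The deposited scanner files hold spot intensities and log10 ratios from Agilent Feature Extraction 10.7.3.1, per the submitters' processing notes, and gave the flags for signal well above background and the channel signals. On the 8 arrays 56.4% to 71.7% of spots were well above background for LECT2 and 63.6% to 82.3% for control.

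Of the table's probes, 26411 were named through their accessions and 13017 were not. A probe was kept if 1 of its channels was well above background on 2 or more arrays (31615 probes), and the brightest probe stood for its gene, leaving 26148 genes, 16754 with a symbol. Of the called genes with a symbol and further probes, 31 of 235 had a probe on the other side of 0. One mean per group was fitted over all 8 arrays with limma 3.58.1 (R 4.3.3), leaving 4 residual degrees of freedom, and p-values were adjusted by Benjamini-Hochberg over all genes. The fit was tested on simulated data with independent noise on each array. These held neither the shared value nor a dye bias, so that test does not bear on either. The p-values measure the spread between the 2 arrays of a group, pooled over the 4 groups and moderated by limma across genes. All 8 arrays were treated as independent, although the design text names 2 experiments. Levels per channel come from the scanner files that match the columns, after normexp (offset 50), loess and quantile normalisation.

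The comparison and the 30 pathway and 8 marker lists (646 genes, 623 tested, 96 called higher and 31 lower) were chosen with earlier results of these data known. Named are the 12 largest called changes each way, up to 3 called members of a list, the 5 largest differences between doses or times each way, and Tnf, Il1b, Cd209a and Arg1; other called genes were named after their values were seen, and uncalled members with their values. Some results are not reported here. Replicate numbers were not taken as pairs, since correlations of replicate deviations between groups ran from -0.06 to 0.47 and not every one exceeded 0.1. Alternatives covered the filter, the arrays fitted, the variance model, the source and scaling of the values, the probes per gene, each array left out and, added after seeing the data, the file of replicate 1 in place of its column and the shared value as missing.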

Additional observations from a re-analysis of the deposited data

Results flagged for a closer look

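The changes of 18 named genes at the low dose differed between the times by the limma fit (48 h minus 3.5 h, log2). Lower at 48 h were Il1a at -5.38, Tmem18 at -5.10, Tnf at -4.71, Riok2 at -4.64, Il23a at -3.99, Tnip1 at -3.15, Fnbp1l at -2.97, Tnfaip2 at -2.97, Fam13c at -2.95, Il27 at -2.82, Intu at -2.78, Zbtb46 at -2.77, Lmo7 at -2.72, Ahsa2 at -2.58 and Gadd45b at -2.55. Rgs2 at 3.58, Eepd1 at 3.02 and Vsir at 2.79 were higher at 48 h, where their changes lay nearer to 0 than at 3.5 h. At 3.5 h the control of Il23a and Ahsa2 and both channels of Fam13c were not well above background on either array, so their sizes are not exact. No group has 4 or more arrays, so single arrays were not compared with the rest of their group.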

How the results depend on the processing

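Against the 1279 genes called at the low dose and 3.5 h, 728 were called with no filter on dim probes, 153 when only the 4 arrays of 3.5 h were fitted, 753 with a trended, robust variance, 2385 with loess and 3242 with median centring of the matched files. None was called from the 2 arrays alone (limma, 4664 at an unadjusted p under 0.05) or from the files as recorded (0, with 896 unadjusted), and leaving out an array gave 117 to 1372. The difference between doses, 0 genes, became 8 with loess, 3 with median centring, 1 with the file of replicate 1 in place of its column and 0 to 436 with an array left out. The 26 differences between times became 0 with no filter, 0 when only the groups compared were fitted, 0 with the trended variance, 0 from the files as recorded, 237 with loess, 111 with median centring and 0 to 240 with an array left out. Causes were not tested. With the replicate number as a block, 1644 genes were called; of the 173 named genes none lost its call, and 12 gained one (Cd209a at adjusted p = 0.0311, Arg1 at 0.0112, Cxcl3 at 0.0287, Slc7a11 at 0.00942, Birc3, Ccl7, Cd14, Fpr1, Fpr2, Gbp4, Tnip3 and Trem3). Genes that changed sign were not called on either side: from the files as recorded Arg1 (1.29), Abca1 (0.14), Egr1 (0.44), Fam13c (-0.22), Irf8 (0.27) and Tlr4 (0.49), with median centring Cd86 (-0.092), Mertk (-0.15) and Fam13c (-0.038), with loess and with Agilent's processed signals Fam13c (-0.41 and -0.16), with all probes Cd80 (0.071), and with replicate 1 or replicate 2 left out Cd86 (-0.23 and 0.71), Csf1r (0.10 and -0.25), Egr1 (-1.31 and 0.28), Il10 (2.11 and -0.18), Jun (-0.81 and 0.058) and Tlr4 (-0.41 and 0.20). Median centring lost 4 named calls (Timd4, Tlr2, Bcl2l11, Ass1), loess 2 (Dusp4, Rel), the file of replicate 1 in place of its column 11 (Dusp4, Rel, Bcl2l11, Fdft1, Vegfa, Dusp8, Rgs18, Rgs10, Wt1, Pdgfra, Cd247), the shared value as missing 4 (Cish, Dusp4, Il15, Bcl2l11), leaving out replicate 1 103 and replicate 2 47. Loess gained 9 (Cd209a, Cxcl3, Slc7a11, Ccl2, Ccl7, Irf8, Tarm1, Tnip3, Trem3) and median centring 10. With loess 16 of 140 named called genes moved by over 1.5-fold (Ahsa2, Angpt2, Bcl2l11, Csf2, Dkk2, Dusp4, Fas, Gpr183, Hdc, Idi2, Il23a, Intu, Kcnj10, Nat8l, Rel, Wt1), and of 35 with further probes 22 had one that differed by over 1.5-fold. A lone array was assumed to vary like the other groups. Dim probes carry only bounds: of the genes called higher, control was dim on both arrays in 78 and both channels in 39.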
